A study of Homo sapiens with 22 samples.

Results

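The genes described here are 46 genes of mitosis and of the G2/M step of the cell cycle. They were chosen by name, with earlier results of these data known. Each was looked up by symbol among the 13682 gene symbols found in all 4 deposited tables. All 46 were present in every table and all 46 passed the filter on low values in every comparison. By role they comprised 12 kinetochore and spindle-checkpoint genes, 8 mitotic kinases and members of the chromosomal passenger complex, 13 spindle and cytokinesis genes, 9 genes of the cyclins, CDK1 and the anaphase-promoting complex (APC/C), and 4 genes of transcription or chromosome structure. The assay was strand-specific mRNA sequencing of HN-6, a cell line from a human squamous carcinoma of the head and neck. The 22 libraries formed 4 comparisons: the SMYD3 knockout line 5-3 against parental HN-6 cells (3 libraries each), a SMYD3 siRNA (si1SMYD3) against a control siRNA (3 each), ASO 081, an antisense oligonucleotide to SMYD3, against the buffer PBS (2 each), and a UHRF1 siRNA against its own control siRNA (3 each). Every culture, controls included, had received 1000 U/ml of interferon-β for 24 h, so the set has no interferon-free cells, and the siRNA, ASO and PBS treatments lasted 72 h. The knockout is 1 line, each knockdown used 1 reagent, and the ASO was compared with buffer and not with a control oligonucleotide.

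Genes of this kind are switched on late in each cell cycle, and their RNA is scarce in cells that have left the cycle. Kinetochores are the protein assemblies that fasten chromosomes to spindle microtubules, and the checkpoint delays chromosome separation until every kinetochore is attached. Cyclin B with the kinase CDK1 drives entry into mitosis, and the APC/C with its activator CDC20 ends it by marking cyclin B and securin for destruction. The transcription factors FOXM1 and MYBL2 (B-MYB) bind these genes with the MuvB complex at a promoter element called the cell cycle genes homology region, CHR, often near CCAAT boxes bound by NF-Y. SMYD3 is a lysine methyltransferase, and UHRF1 is a chromatin protein that guides maintenance DNA methylation and is made mainly in dividing cells.

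The promoters of the 46 genes share these elements more often than promoters at large. Promoter sequence was taken from RefSeq (GRCh38.p14) for the 39 genes that matched. AURKA, BIRC5, BUB3, FOXM1, TPX2, TTK and UBE2C are named only. In the 250 bases before the start site, TTTGAA, a form of the CHR, was found on either strand in 21 of 39 promoters (53.8%), against 13.6% of the 27305 promoters in the table and 1 of 30 promoters of G1/S genes. Within the last 70 bases before the start it was found in 16 of 39 (41.0%), against 3.14% of all promoters and 0 of 30 G1/S promoters. CCAAT, on either strand, was found in 30 of 39 (76.9%), against 33.0% of all promoters and 17 of 30 G1/S promoters. Another form of the CHR, TTCGAA, was found in 0 of 39, against 1.20% of all promoters. The motif TTTCCCGC, an E2F site of G1/S genes, was found in 1 of 39, the promoter of CENPA, against 1.42% of all promoters and 7 of 30 G1/S promoters. By role TTTGAA was most frequent among spindle and cytokinesis genes, with 9 of 12, and least frequent among kinetochore and checkpoint genes, with 3 of 10. A match is a description of the letters and not a bound site. Only 1 start site per gene was used, so a motif at another start site of the gene is not seen. Over 300 bases that include some after the start, TTTGAA was found in 26 of 39 (66.7%), against 15.4% of all promoters. The 5 promoters printed here show the range in the 250-base windows. There, CDC20, MKI67 and KIF11 hold both motifs, SPC24 holds CCAAT only and CDC25C holds neither. The CDC25C window lies directly before the outermost annotated base of that gene, 138338355, so a start site further in is not covered. Each is given 5′ to 3′ on the gene's own strand, with TTTGAA and CCAAT, or their reverse complements TTCAAA and ATTGG, in capitals; in MKI67 a TTTGAA overlaps an ATTGG.
CDC20, chr1:43358731-43358980, + strand: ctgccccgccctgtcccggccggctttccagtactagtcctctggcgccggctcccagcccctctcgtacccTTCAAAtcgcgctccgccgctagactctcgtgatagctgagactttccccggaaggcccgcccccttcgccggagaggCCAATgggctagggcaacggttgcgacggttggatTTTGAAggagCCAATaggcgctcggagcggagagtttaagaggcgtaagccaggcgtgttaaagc
MKI67, chr10:128126424-128126673, - strand: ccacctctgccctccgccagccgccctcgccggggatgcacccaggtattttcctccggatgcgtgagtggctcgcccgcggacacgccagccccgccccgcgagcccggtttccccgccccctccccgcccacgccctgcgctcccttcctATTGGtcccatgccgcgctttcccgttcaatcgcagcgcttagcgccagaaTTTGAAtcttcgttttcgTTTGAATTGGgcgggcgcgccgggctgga
KIF11, chr10:92592880-92593129, + strand: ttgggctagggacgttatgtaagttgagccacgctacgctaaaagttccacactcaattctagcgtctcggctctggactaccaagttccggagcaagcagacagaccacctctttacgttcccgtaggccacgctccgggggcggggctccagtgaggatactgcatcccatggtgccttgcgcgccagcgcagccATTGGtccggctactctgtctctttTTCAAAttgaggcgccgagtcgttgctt
SPC24, chr19:11155783-11156032, - strand: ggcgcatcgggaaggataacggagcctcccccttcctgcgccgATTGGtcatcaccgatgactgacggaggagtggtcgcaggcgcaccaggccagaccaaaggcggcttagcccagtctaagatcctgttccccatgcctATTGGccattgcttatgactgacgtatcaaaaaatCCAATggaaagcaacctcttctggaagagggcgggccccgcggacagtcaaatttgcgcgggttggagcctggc
CDC25C, chr5:138338356-138338605, - strand: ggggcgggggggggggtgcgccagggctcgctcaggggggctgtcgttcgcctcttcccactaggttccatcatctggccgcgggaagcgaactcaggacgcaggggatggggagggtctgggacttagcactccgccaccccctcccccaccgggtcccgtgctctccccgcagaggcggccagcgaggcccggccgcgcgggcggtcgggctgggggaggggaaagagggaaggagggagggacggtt

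Levels below are CPM, reads of a gene scaled to a common library total, in the siRNA and ASO tables and deposited normalized counts in the knockout table, each value being 1 library. Changes are on the log2 scale and carry a standard error (SE). For limma the SE is that of the fit. For edgeR it is approximate, the size of the change divided by the square root of the F statistic of its test. A gene counts as changed, rising or falling, at a Benjamini-Hochberg adjusted p below 0.05 over all genes tested. The tests were edgeR for the count tables and limma for the knockout table. Gene reads per library ranged from 24783605 to 47702859 in the knockout table, 32441991 to 54121262 in the SMYD3 siRNA table, 30792923 to 32045158 in the ASO table and 57588142 to 62921144 in the UHRF1 siRNA table. The targeted genes were lowered: SMYD3 was at 2.61, 2.98 and 2.95 CPM under its siRNA, against 16.6, 13.2 and 15.5 CPM under control siRNA, and at 4.19 and 3.28 CPM under the ASO, against 22 and 21.1 CPM in PBS. In the knockout line SMYD3 RNA was at 93.6 ± 18.5 normalized counts, against 322 ± 18.3 in parental cells (SD, n = 3 each), which is 29.1% of the parental level; an edit need not remove the RNA, so this level does not check the protein. UHRF1 was at 1.88, 2.69 and 2.10 CPM under its siRNA, against 66.4, 63 and 64.1 CPM under its control. UHRF1 also fell under the SMYD3 siRNA (-1.68 ± 0.14, adjusted p = 4.24e-07), and rose in the knockout line (0.44 ± 0.03, adjusted p = 1.00e-08) and under the ASO (0.36 ± 0.06, adjusted p = 0.00119). SMYD3 fell under the UHRF1 siRNA to 67.3% of its control (-0.57 ± 0.09, adjusted p = 3.32e-07). All 10 squamous epithelial markers examined were detected in every table. Among leukocyte markers MS4A1 was at 0 in all libraries of the 3 count tables, while others were detected. Of 4 tested under the UHRF1 siRNA 3 rose and 0 fell (32% and 32.7% of all genes tested did), with ITGAM at 9.55 CPM, against 2.37 CPM. The leukocyte sum was 14.3 to 14.8 CPM there, against 4.53 to 5.72 CPM. Under the SMYD3 siRNA it was 16.6 to 19.5 CPM, against 15.1 to 16.8 CPM, and under the ASO 10.5 to 11.4 CPM, against 8.59 to 10.0 CPM. The summed level of fibroblast markers was 504 to 578 CPM under the UHRF1 siRNA, against 119 to 119.7 CPM under its control, with COL1A1 at 504 ± 42.4 CPM, against 82.2 CPM. PDGFRB fell there to 8.75 CPM, against 19.9 CPM, and LUM did not pass the test (-0.03 ± 0.08, adjusted p = 0.761). The sum was 221 to 263 CPM under the SMYD3 siRNA, against 135 to 158 CPM under its control. Of 10 leukocyte markers 4 had a line in the knockout table, with a sum of 310.0 to 326 CPM in the knockout line against 44.9 to 48.0 CPM in parental cells, mostly CD68. Of these 4 markers 2 rose and 2 fell, CD14 (-2.92 ± 0.26) and LYZ (-2.11 ± 0.39). There, 3 fibroblast markers summed to 15.8 to 17.8 CPM in the knockout line, against 59.0 to 63.3 CPM in parental cells. The part of these markers in the results was not tested.

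The 46 genes moved in 3 different ways. Under the SMYD3 siRNA 44 fell (24.4% of all genes tested did) and under the UHRF1 siRNA all 46 (32.7%), under the ASO 12 fell and 1 rose (10.3% and 11.3%), and in the knockout line 30 rose and 12 fell (42.1% and 42.5%). Together they took 0.0570% to 0.0598% of gene reads under the SMYD3 siRNA, against 0.105% to 0.154% under its control siRNA. They took 0.536% to 0.563% under the ASO, against 0.608% to 0.629% in PBS, and 0.779% to 0.809% in the knockout line, against 0.646% to 0.655% in parental cells. Under the UHRF1 siRNA they took 0.0865% to 0.0933%, against 0.584% to 0.619% under its control. The groups do not overlap in any of the 4 comparisons. Gene reads here include mitochondrial ones, and a smaller mitochondrial share raises the share of every other gene. Mitochondrial genes took 4.82% to 4.88% in the knockout line, against 14.9% to 15.7% in parental cells. They took 5.73% to 6.78% under the SMYD3 siRNA, against 6.63% to 10.2% under its control, and 0 in the ASO and UHRF1 siRNA tables. Shares without these reads were not computed. The control libraries of the SMYD3 siRNA table stood well below those of the other 3 tables, and within them control replicate 1 stood apart at 0.154%, against 0.105% and 0.107% in the other two. The tables were deposited separately, and the cause of the lower control level was not tested. In bulk RNA, fewer cells in G2 or mitosis and less of these RNAs per such cell cannot be told apart.

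**Figure D1:**
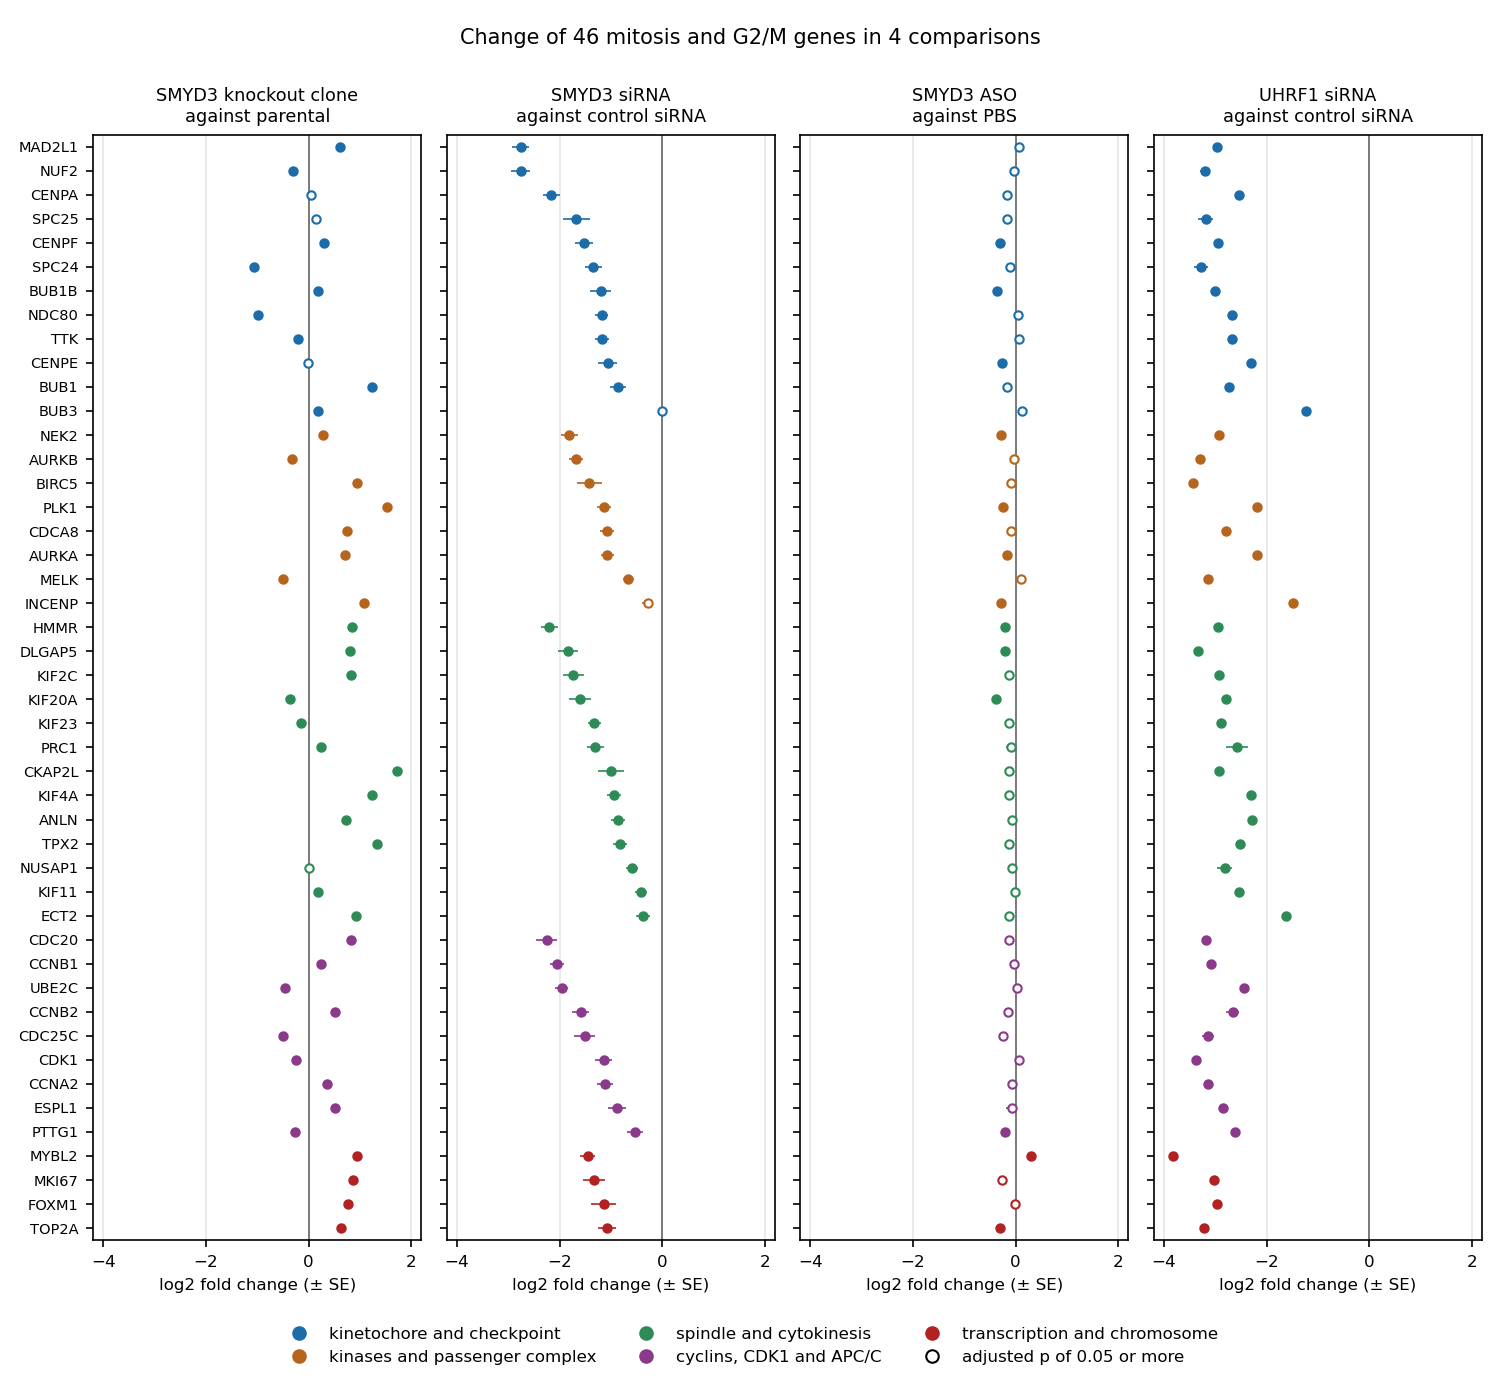
Log2 fold change with its SE (horizontal axis) of each of the 46 genes (rows, grouped by role and ordered by the change under the SMYD3 siRNA) in the 4 comparisons. Filled points passed the adjusted p of 0.05; 44 genes lie below 0 as filled points under the SMYD3 siRNA and 46 under the UHRF1 siRNA, while 30 lie above 0 as filled points in the knockout line.

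**Figure D2:**
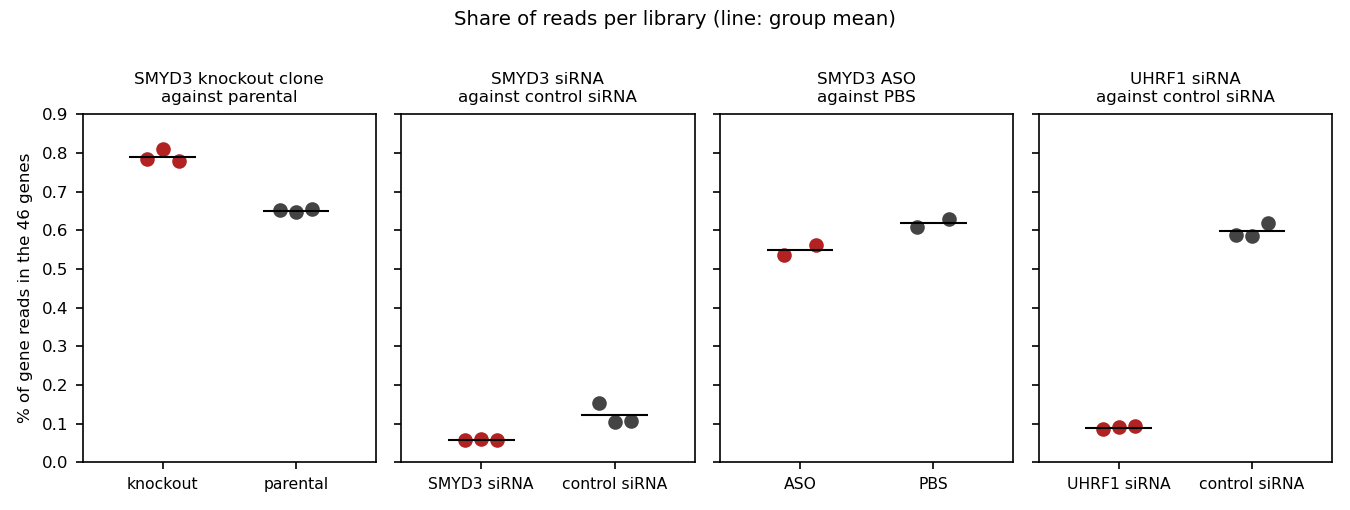
Percent of gene reads taken by the 46 genes in each of the 22 libraries (points; lines are group means), with the knockout or treated group left of its control. The control libraries of the SMYD3 siRNA comparison lie between 0.105% and 0.154%, those of the other comparisons between 0.584% and 0.655%. Gene reads include mitochondrial ones, which are at 0 in the ASO and UHRF1 siRNA comparisons.

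Under the SMYD3 siRNA 44 of the 46 genes fell and none rose, while 24.4% of all genes tested fell and 24.2% rose. The median log2 fold change of the 46 was -1.19, against -0.02 over all genes tested. In the same 44 genes the treated libraries lay below every control library, which held for 29% of all genes tested. The fall was over 2-fold for 33 genes and over 4-fold for 6. BUB3 and INCENP did not pass the test. Without control replicate 1, the library that stood apart, 42 fell and the median was -1.02. Across the left-out libraries the number that fell ranged from 39 to 45. ECT2 lost its call without any of the 3 treated replicates or without control replicate 1, KIF11 without treated replicate 1 or control replicate 1, and CKAP2L, PTTG1 and TOP2A without treated replicate 1.

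Among kinetochore genes the falls under the SMYD3 siRNA were led by NUF2, MAD2L1 and CENPA. NUF2, a subunit of the NDC80 complex that grips microtubules, was at 0.880, 1.09 and 0.895 CPM under the SMYD3 siRNA, against 8.03, 4.98 and 6.29 CPM under control siRNA (-2.76 ± 0.19, adjusted p = 5.44e-08). MAD2L1 (MAD2), which holds CDC20 inactive while the checkpoint is on, was at 1.20, 1.55 and 1.41 CPM, against 11.7, 8.03 and 8.35 CPM (-2.76 ± 0.17, adjusted p = 2.16e-08). For both genes every treated library lay below every control library, a pattern found in 29% of all genes tested. CENPA, the histone H3 variant that marks centromeres, was at 1.28, 1.55 and 1.39 CPM, against 7.82, 5.6 and 5.42 CPM (-2.16 ± 0.17, adjusted p = 1.82e-07). The other NDC80 complex subunits fell less, with SPC25 at -1.67 ± 0.27, SPC24 at -1.34 ± 0.17 and NDC80 itself at -1.18 ± 0.12. Of the checkpoint proteins, BUB1 fell by 0.86 and BUB1B (BUBR1) by 1.20 on the log2 scale, each with adjusted p of 0.000696 or less. BUB3, which carries both to the kinetochore, was at 129.6, 123 and 122 CPM under the SMYD3 siRNA, against 129, 118 and 128 CPM under control siRNA. The BUB3 values overlap, and its change of -0.00 ± 0.07 had an adjusted p of 0.997. Its sign changed with the processing.

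Of the kinases and passenger genes 7 of 8 fell under the SMYD3 siRNA (87.5%, against 24.4% of all genes tested). NEK2, a centrosome kinase, was at 2.08, 2.42 and 2.57 CPM, against 10.8, 7.23 and 6.88 CPM (-1.81 ± 0.17, adjusted p = 1.31e-06). AURKB, the kinase of the passenger complex that corrects wrong attachments, was at 4.64, 7 and 5.13 CPM, against 20.1, 17.0 and 16.4 CPM (-1.68 ± 0.14, adjusted p = 2.53e-07). The treated AURKB libraries all lay under the lowest control library, a pattern found in 29% of all genes tested. BIRC5 (survivin), which docks the complex on chromosomes, fell to 6.85, 10.3 and 9.80 CPM, against 31.8, 19.8 and 20.1 CPM (-1.42 ± 0.24, adjusted p = 0.00251). INCENP, the scaffold of that complex, was at 22.3, 24.6 and 24.3 CPM, against 34.7, 27.8 and 24.1 CPM (-0.28 ± 0.11, adjusted p = 0.0510). The lowest INCENP control library lay below 2 of the 3 treated ones. INCENP passed under 4 of the alternatives run, with adjusted p from 0.00705 to 0.0463. MELK (-0.66 ± 0.11) fell least among those that passed.

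All 13 spindle and cytokinesis genes fell under the SMYD3 siRNA, over a wide range, against 24.4% of all genes tested. HMMR, a spindle-pole protein, was at 1.55, 1.76 and 1.79 CPM, against 10.0, 6.34 and 7.03 CPM (-2.20 ± 0.17, adjusted p = 1.89e-07). DLGAP5 (HURP), which stabilises spindle fibres near chromosomes, was at 2.61, 2.82 and 3.02 CPM, against 13.7, 8.36 and 8.01 CPM (-1.83 ± 0.20, adjusted p = 2.31e-05). KIF2C (MCAK), a microtubule-depolymerising kinesin, was at 6.66, 10.4 and 9.62 CPM, against 37.6, 25.5 and 25.2 CPM (-1.73 ± 0.21, adjusted p = 0.000386). In all 3 genes control replicate 1 was the highest library. At the other end, KIF11, the motor that pushes spindle poles apart, was at 16.2, 18.2 and 18 CPM, against 28.3, 19.4 and 21.5 CPM (-0.41 ± 0.12, adjusted p = 0.0114). ECT2, which starts furrow formation, was at 35.5, 33.6 and 32.1 CPM, against 55.7, 37.6 and 37.6 CPM (-0.37 ± 0.14, adjusted p = 0.0435).

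All 9 genes of the cyclins, CDK1 and the APC/C fell under the SMYD3 siRNA, against 24.4% of all genes tested. Their median, -1.51, was the largest in size of the 5 role groups. CDC20 was at 5.97, 7.49 and 7.65 CPM under the SMYD3 siRNA, against 44.6, 29.2 and 27.0 CPM under control siRNA (-2.25 ± 0.21, adjusted p = 7.16e-05). CCNB1 (cyclin B1) was at 5.62, 6.62 and 6.18 CPM, against 31.8, 20.9 and 23.6 CPM (-2.05 ± 0.14, adjusted p = 1.07e-07). UBE2C, the ubiquitin-conjugating enzyme of the APC/C, was at 4.96, 7.06 and 6.45 CPM, against 27.6, 20.6 and 23.7 CPM (-1.96 ± 0.13, adjusted p = 5.06e-08). The 3 genes lay at 20.9%, 24.1% and 25.7% of their control means. CDK1, the partner kinase of cyclin B, fell less, at -1.14 ± 0.16 (adjusted p = 0.000198), and securin (PTTG1) least, at -0.53 ± 0.15 (adjusted p = 0.00983). Separase (ESPL1), the protease that securin restrains, was at -0.88 ± 0.18 (adjusted p = 0.00165). All 4 transcription and chromosome genes fell: MYBL2 at -1.45 ± 0.15, MKI67 (Ki-67) at -1.33 ± 0.21, FOXM1 at -1.14 ± 0.24 and TOP2A (DNA topoisomerase IIα) at -1.07 ± 0.18. FOXM1 was at 9.14, 14.3 and 13.5 CPM, against 35.2, 24.0 and 22.1 CPM. Its treated libraries lay below every control library, a pattern found in 29% of all genes tested.

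**Figure D3:**
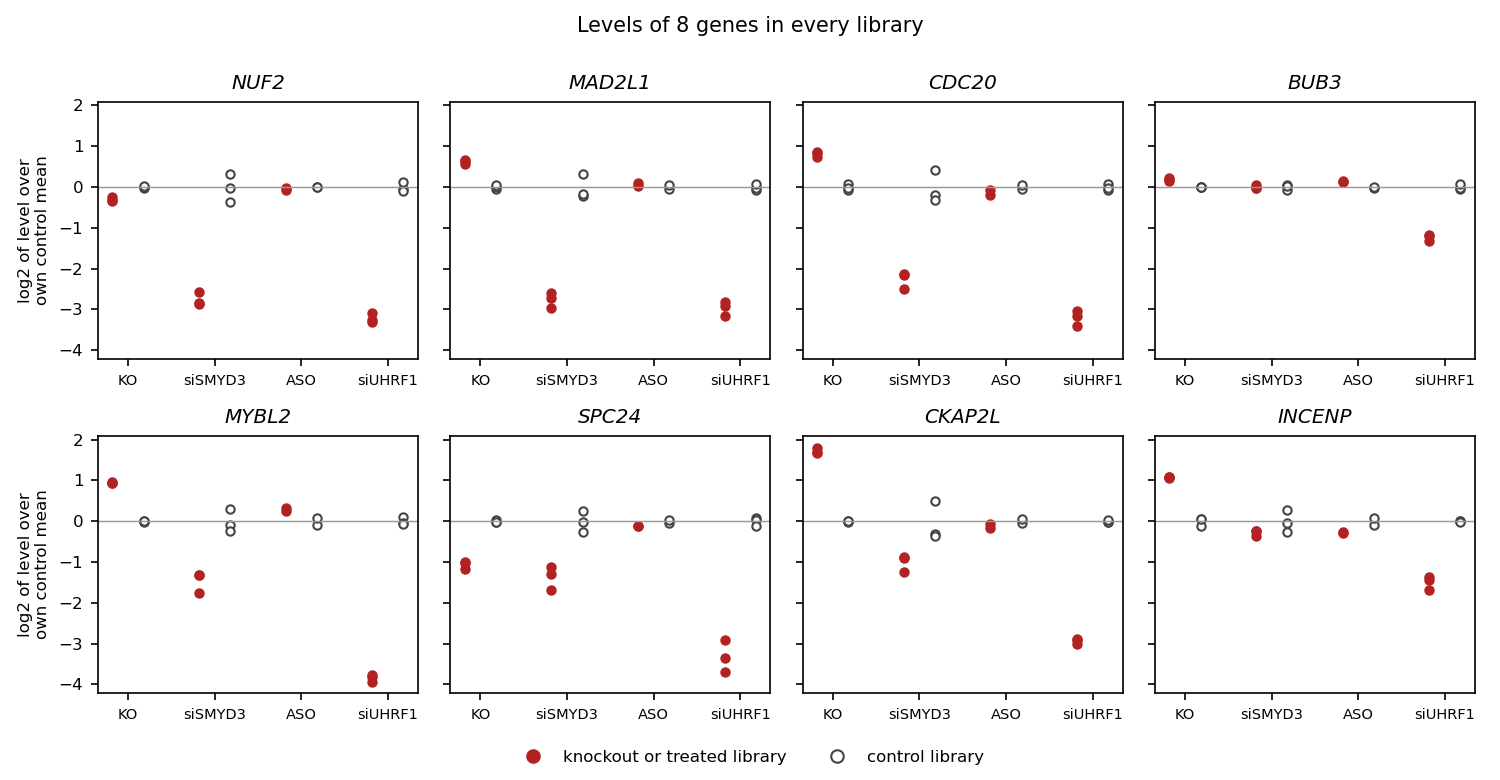
Log2 ratio of each library's level to the mean of its own control group (vertical axis) for 8 genes in the 4 comparisons (KO is the knockout line); filled points are knockout or treated libraries, open points control libraries. NUF2, MAD2L1 and CDC20 lie far below their controls under both siRNAs, BUB3 lies below its controls only in the UHRF1 siRNA libraries, and SPC24 lies below its controls in the knockout line, where CKAP2L, INCENP and MYBL2 lie above them.

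Under the ASO 12 of the 46 genes fell, 1 rose and 33 did not pass the test, while 10.3% of all genes tested fell and 11.3% rose. The count depended on the method. With DESeq2 8 fell and 1 rose, while 962 genes of the whole table fell and 1308 rose. With the replicate number as a block 24 fell and 3 rose, while 3296 of all genes fell and 3477 rose. The median change was -0.13, against -0.00 over all genes tested, and no gene moved 2-fold. SMYD3 RNA itself was at 17.3% of the PBS level under the ASO and at 18.9% of the control level under the siRNA. Treated libraries lay below both PBS libraries in 29 of the 46 genes, a pattern found in 31.2% of all genes tested, and above both in 6, against 30.5% of all genes tested. The 3 kinetochore genes that fell were BUB1B, CENPF and CENPE. BUB1B was at 36.5 and 37.4 CPM under the ASO, against 45.2 and 49.8 CPM in PBS (-0.36 ± 0.07, adjusted p = 0.00207). CENPF, a large outer-kinetochore protein, was at 98.5 and 113 CPM, against 127 and 134 CPM (-0.30 ± 0.07, adjusted p = 0.00751). CENPE, the kinesin that carries chromosomes to the spindle middle, was at 40.5 and 41.3 CPM, against 48.2 and 50.7 CPM (-0.27 ± 0.06, adjusted p = 0.00664). NUF2, by contrast, was at 40.3 and 38.9 CPM under the ASO, against 40.7 and 40.7 CPM in PBS (-0.04 ± 0.06, adjusted p = 0.674).

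The other genes that fell under the ASO were 4 kinases or passenger genes, 3 spindle genes, PTTG1 and TOP2A. KIF20A, a kinesin of the midzone, had the largest fall, at 57.3 and 61.8 CPM, against 76.1 and 78.9 CPM (-0.38 ± 0.06, adjusted p = 0.000775). TOP2A was at 481 and 531 CPM, against 616 and 643 CPM (-0.31 ± 0.06, adjusted p = 0.00399). NEK2 (-0.29 ± 0.06), INCENP (-0.28 ± 0.06), PLK1 (-0.25 ± 0.06) and AURKA (-0.17 ± 0.05) were the kinases and passenger genes, and HMMR and DLGAP5, each -0.21 ± 0.06, the other spindle genes. PTTG1 was at -0.20 ± 0.06. The gene that rose was MYBL2, at 139 and 146 CPM under the ASO, against 109 and 124 CPM in PBS (0.29 ± 0.07, adjusted p = 0.0088). With 2 libraries a group single libraries decided several calls: without PBS replicate 1 MYBL2 did not pass (adjusted p = 0.103), and without PBS replicate 2 the genes that fell numbered 6.

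In the knockout line 30 of the 46 genes rose (65.2%), 12 fell (26.1%) and 4 did not pass the test, while 42.1% of all genes tested rose and 42.5% fell. The median change was 0.32, against -0.02 over all genes tested. This split depended on the scaling. With upper-quartile factors in edgeR the median of all genes moved to -0.305 and that of the 46 to 0.0481, and 22 rose and 17 fell. BUB1B, BUB3, CENPA, SPC25, KIF11, PRC1 and CCNB1 changed sign under that scaling. Of these BUB3 and KIF11, rises with the deposited scaling, passed as falls, as did CENPA, and BUB1B, PRC1 and CCNB1 no longer passed. CENPF, NEK2 and CCNA2 kept their sign but no longer passed, and CENPE and NUSAP1 passed as falls. The rises and falls below are those with the deposited scaling. CENPA, CENPE, SPC25 and NUSAP1 were those that did not pass with the deposited scaling. Mitochondrial genes took 4.82% to 4.88% of reads in the knockout line, against 14.9% to 15.7% in parental cells, and without them the counts of 30 and 12 were the same.

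Of the kinetochore genes 5 rose and 4 fell in the knockout line (41.7% and 33.3%), shares near or below the 42.1% and 42.5% of all genes tested, and BUB1B, BUB3 and CENPF were the risers that depended on the scaling. BUB1, the checkpoint kinase, was at 5946, 6144 and 5758 normalized counts in the knockout line, against 2483, 2519 and 2543 in parental cells (1.24 ± 0.04, adjusted p = 1.81e-13). MAD2L1 also rose (0.62 ± 0.04, adjusted p = 2.93e-09). The genes of the NDC80 complex went the other way. SPC24 was at 534, 475 and 519 normalized counts, against 1046, 1092 and 1047 (-1.06 ± 0.06, adjusted p = 2.73e-10). NDC80 was at 2482, 2554 and 2541, against 4857, 5089 and 5056 (-0.98 ± 0.04, adjusted p = 2.21e-12). NUF2 was at 1664, 1737 and 1634, against 2033, 2086 and 2094 (-0.30 ± 0.04, adjusted p = 1.15e-05). SPC24 and NDC80 were thus at 48.0% and 50.5% of the parental level and NUF2 at 81.0%, while SPC25 was at 110.1% and did not pass (adjusted p = 0.0597). TTK (MPS1), the kinase upstream of the checkpoint, fell by 0.20 on the log2 scale (adjusted p = 0.000621).

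Of the kinases and passenger genes 6 rose and 2 fell in the knockout line, of which NEK2 depended on the scaling. These are 75% and 25%, against 42.1% and 42.5% of all genes tested. PLK1, a kinase used throughout mitosis, was at 3661, 3388 and 3919 normalized counts in the knockout line, against 1379, 1195 and 1222 in parental cells (1.53 ± 0.06, adjusted p = 5.25e-12). INCENP was at 3524, 3585 and 3552, against 1737, 1556 and 1749 (1.08 ± 0.05, adjusted p = 1.29e-11). BIRC5 was at 9700, 9075 and 9744, against 5088, 4779 and 4851 (0.95 ± 0.04, adjusted p = 4.64e-12). CDCA8 (borealin), the fourth subunit of the passenger complex, rose with them (0.74 ± 0.04, adjusted p = 1.85e-10). AURKB, the kinase of the same complex, fell to 4738, 4437 and 4960 normalized counts, against 6049, 5982 and 5756 (-0.33 ± 0.04, adjusted p = 3.39e-06). So 3 subunits of the complex rose and its kinase fell, with no overlap between groups for any of the 4. Such separation was common in this comparison: 42.7% of all genes tested lay higher without overlap and 43.1% lower. MELK fell to 71.3% of the parental level (-0.49 ± 0.03, adjusted p = 3.35e-09), although the median gene of its chromosome 9 was at 0.53.

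Of the spindle and cytokinesis genes 10 rose and 2 fell in the knockout line, of which KIF11 and PRC1 changed sign with the scaling. These are 76.9% and 15.4%, against 42.1% and 42.5% of all genes tested. CKAP2L, a spindle protein, had the largest rise of the 46, at 3949, 4259 and 3851 normalized counts in the knockout line, against 1209, 1225 and 1215 in parental cells (1.72 ± 0.05, adjusted p = 4.10e-14). TPX2, which nucleates spindle microtubules and activates AURKA, was at 18496, 18874 and 18318, against 7686, 7082 and 7195 (1.34 ± 0.04, adjusted p = 4.22e-14). KIF4A, a chromosome-bound kinesin, was at 4231, 4514 and 4378, against 1956, 1735 and 1913 (1.23 ± 0.05, adjusted p = 3.25e-12). All 3 were over 2-fold higher in the knockout line. The exceptions were the midzone kinesins KIF20A, which fell by 0.36 on the log2 scale, and KIF23, which fell by 0.14, with adjusted p of 9.21e-07 and 0.00223.

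Of the cyclin and APC/C genes 5 rose and 4 fell in the knockout line (55.6% and 44.4%), not far from the 42.1% and 42.5% of all genes tested, of which CCNB1 changed sign with the scaling. CDC20 rose to 13764, 12829 and 14073 normalized counts, against 8143, 7325 and 7613 (0.82 ± 0.04, adjusted p = 1.12e-10). ESPL1 (0.52 ± 0.04), CCNB2 (cyclin B2, 0.52 ± 0.05) and CCNA2 (cyclin A2, 0.35 ± 0.04) rose, each with adjusted p of 8.68e-07 or less, and CCNA2 did not pass with upper-quartile factors. CDK1 was at 5465, 5608 and 5383 normalized counts, against 6447, 6643 and 6494 (-0.25 ± 0.03, adjusted p = 6.52e-06). CDC25C, the phosphatase that activates CDK1, fell by 0.49 on the log2 scale, UBE2C by 0.45 and PTTG1 by 0.27. All 4 transcription and chromosome genes rose. MYBL2 was at 3807, 3835 and 3801 normalized counts, against 1964, 1986 and 1966 (0.95 ± 0.04, adjusted p = 3.11e-12). MKI67 (0.86 ± 0.05), FOXM1 (0.77 ± 0.03) and TOP2A (0.64 ± 0.04) also rose, each with adjusted p of 2.51e-09 or less. Among the 39 genes with a promoter in the table, the median change in the knockout line was 0.73 for the 21 with TTTGAA and -0.01 for the 18 without it. The motif also went with role: it was most frequent among spindle genes (knockout median 0.81) and least frequent among kinetochore genes (0.09). The part of role in this split was not tested. The medians with and without TTTGAA were -1.14 and -1.48 under the SMYD3 siRNA, -0.13 and -0.09 under the ASO, and -2.85 and -2.95 under the UHRF1 siRNA.

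Under the UHRF1 siRNA all 46 genes fell, while 32.7% of all genes tested fell and 32% rose. The median change was -2.90, against -0.01 over all genes tested, and the treated libraries lay below every control library in all 46, a pattern found in 34.6% of all genes tested. The fall was over 4-fold for 43 genes and over 8-fold for 16. The count was 46 with each library left out and under each alternative run. MYBL2 had the largest fall, at 5.49, 5.99 and 6.19 CPM under the UHRF1 siRNA, against 89.6, 82.0 and 79.9 CPM under its control (-3.83 ± 0.07, adjusted p = 1.46e-43). TOP2A was at 51.8, 51.7 and 55.2 CPM, against 488, 485 and 517 CPM (-3.23 ± 0.05, adjusted p = 9.91e-45). MKI67 was at 84.0, 73.4 and 85.6 CPM, against 589.9, 666 and 719 CPM (-3.02 ± 0.06, adjusted p = 2.91e-29). These 3 genes were at 7.03%, 10.7% and 12.3% of their control means.

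Among kinetochore genes SPC24, NUF2 and SPC25, all subunits of the NDC80 complex, fell most under the UHRF1 siRNA. SPC24 was at 1.00, 1.72 and 1.27 CPM, against 13.8, 13.3 and 12 CPM (-3.28 ± 0.13, adjusted p = 2.25e-27). NUF2 was at 5.49, 5.6 and 6.38 CPM, against 52.4, 50.7 and 58.6 CPM (-3.21 ± 0.08, adjusted p = 7.31e-39). SPC25 was at 1.54, 0.870 and 1.32 CPM, against 11.2, 10.3 and 12.4 CPM (-3.19 ± 0.14, adjusted p = 9.25e-26). They stood at 10.2%, 10.8% and 11.0% of their control means. BUB3 had the smallest fall of the 46, at 76.9, 85.9 and 83.9 CPM, against 187, 190.4 and 202 CPM (-1.23 ± 0.05, adjusted p = 1.34e-27).

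Of the kinases and passenger genes BIRC5 fell most under the UHRF1 siRNA, at 11.4, 14.2 and 12.9 CPM, against 145, 132 and 139 CPM under its control (-3.43 ± 0.06, adjusted p = 2.29e-41). AURKB (-3.29 ± 0.06) and MELK (-3.14 ± 0.05) followed, and INCENP fell least of the 8, at -1.48 ± 0.06 (adjusted p = 3.69e-27). Among spindle genes DLGAP5 was at 4.75, 5.99 and 5.19 CPM, against 52.6, 52.7 and 55.6 CPM (-3.33 ± 0.08, adjusted p = 1.63e-39). HMMR (-2.95 ± 0.08) and KIF2C (-2.93 ± 0.06) came next, and ECT2 was lowest in size at -1.63 ± 0.05 (adjusted p = 1.18e-32). Among cyclin and APC/C genes CDK1 was at 10.2, 12.6 and 12.1 CPM, against 118, 117 and 127 CPM (-3.38 ± 0.06, adjusted p = 2.46e-41). CDC20 (-3.19 ± 0.06), CDC25C (-3.14 ± 0.12) and CCNA2 (-3.14 ± 0.06) were close behind it. BUB3, INCENP and ECT2 had the 3 smallest changes of the 46 under each siRNA.

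As all 46 genes fell under the UHRF1 siRNA, the 44 that fell under the SMYD3 siRNA were necessarily among them. The sizes differed for most of the 46. The difference between effects, SMYD3 siRNA minus UHRF1 siRNA, was tested in edgeR over the 16 libraries of the 3 count tables and was above 0 for 43 of the 46 genes and below 0 for none, while 28% of all genes tested were above 0 and 26.8% below. Its median was 1.49. The 3 genes that did not pass were all kinetochore genes. With intervals of 2 SE either side, they were MAD2L1 at 0.19 (-0.19 to 0.58), CENPA at 0.37 (-0.00 to 0.73) and NUF2 at 0.43 (0.01 to 0.85, adjusted p = 0.083). These intervals leave room for a difference. The largest differences were in MELK, at 2.47 ± 0.12, and MYBL2, at 2.38 ± 0.16. MELK fell to 63.4% of its control under the SMYD3 siRNA and to 11.4% under the UHRF1 siRNA. Over the 46 genes the log2 fold changes under the siRNAs had a Pearson r of 0.54 and a Spearman rho of 0.52, given as a description, since the genes come from the same libraries and are not independent. The comparisons have separate control libraries, which differed in level. Of gene reads the 46 genes took 0.105% to 0.154% in the SMYD3 siRNA controls, against 0.584% to 0.619% in the UHRF1 siRNA controls. Under the UHRF1 siRNA itself they took 0.0865% to 0.0933%. The part of the unlike control levels in the differences between effects was not tested.

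**Figure D4:**
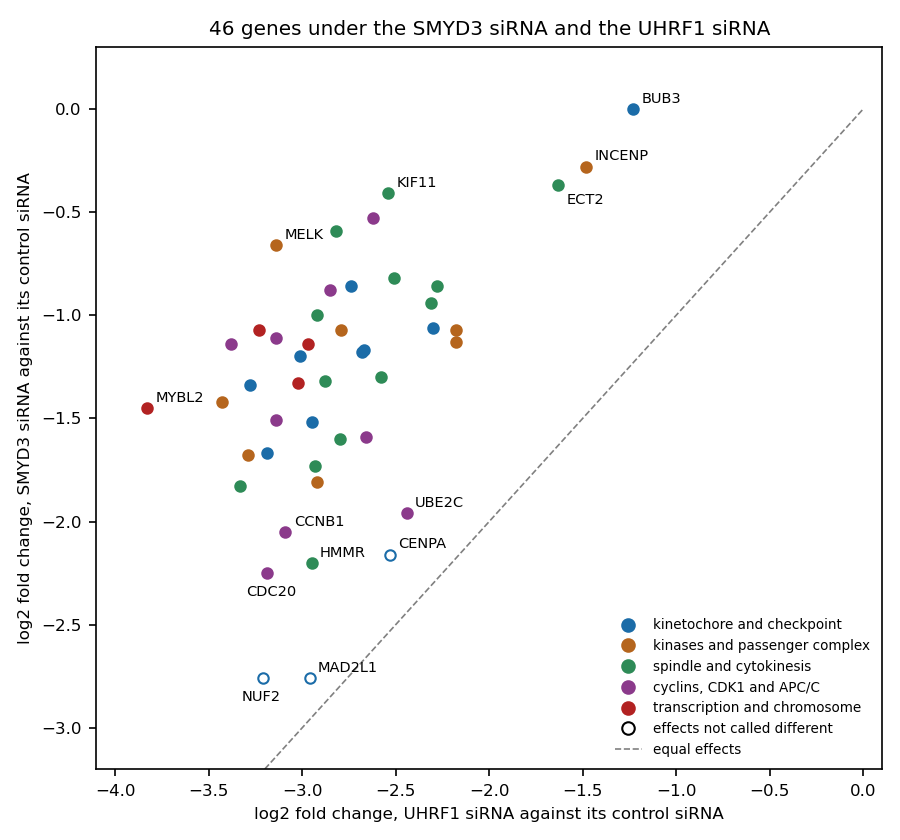
Log2 fold change of each of the 46 genes under the SMYD3 siRNA (vertical axis) and under the UHRF1 siRNA (horizontal axis), coloured by role; the dashed line marks equal effects. All points lie above the line, and the 3 open points, MAD2L1, CENPA and NUF2, are those whose effects were not called different.

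The 3 ways of lowering SMYD3 also differed from each other. SMYD3 siRNA minus ASO was below 0 for 42 of the 46 genes and above 0 for none, while 19.3% of all genes tested were below 0 and 18.6% above. BUB3, INCENP, ECT2 and PTTG1 did not pass. MAD2L1 at -2.82 ± 0.19 and NUF2 at -2.73 ± 0.20 led the list. Knockout minus SMYD3 siRNA, tested in limma over all 22 libraries, was above 0 for 41 genes and below 0 for none, while 40.9% of all genes tested were above 0 and 36.2% below. CDC20 was at 2.81 ± 0.19 (adjusted p = 1.34e-10). The 5 genes that did not pass were BUB3, NDC80, SPC24, MELK and PTTG1. With intervals of 2 SE either side, the difference was 0.02 for NDC80 (-0.22 to 0.26), -0.11 for SPC24 (-0.41 to 0.19) and 0.07 for MELK (-0.15 to 0.30). These 3 genes fell in both comparisons. This test works on log2(CPM + 1), which understates changes of low genes. In edgeR on reads MAD2L1 was at 3.28 ± 0.16 and CDC20 at 2.97 ± 0.20, and the same 5 genes did not pass, with NDC80 at 0.10 ± 0.12 and SPC24 at 0.17 ± 0.18. Knockout minus ASO was above 0 for 25 genes and below 0 for 9, while 35.6% and 37.7% of all genes tested were. NDC80 (-1.15 ± 0.13) and SPC24 (-1.04 ± 0.17) were the most negative and CKAP2L (1.68 ± 0.21) and PLK1 (1.62 ± 0.13) the most positive. UHRF1 siRNA minus ASO was below 0 for all 46 (background 26.6%), and knockout minus UHRF1 siRNA above 0 for all 46 (background 40.4%).

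Further genes of G2 and mitosis, 102 in all, were looked up in the same way. Under the SMYD3 siRNA 48 fell and 13 rose (47.1% and 12.7%, against 24.4% and 24.2% of all genes tested), with a median of -0.20. Of 28 other spindle genes 21 fell, led by DEPDC1 (-2.35 ± 0.25), TROAP (-1.96 ± 0.20) and the kinesin KIF18B (-1.87 ± 0.14). Of 33 other kinetochore genes 13 fell and 5 rose. HJURP, the chaperone that deposits CENPA, had the largest of these changes, at -1.64 ± 0.13 (adjusted p = 2.26e-07), followed by CENPM (-1.35 ± 0.21) and SKA3 (-1.31 ± 0.18). A list of 20 condensin, cohesin and other chromosome genes had 6 that fell and 4 that rose (30% and 20%), near the shares of all genes tested. NCAPH (-1.32 ± 0.19) and NCAPG (-1.24 ± 0.14) of condensin I fell, as did CDCA3 (-1.96 ± 0.14), which is on that list but is a factor of mitotic entry and belongs to neither complex. Among 21 other cyclin and APC/C genes 8 fell and 3 rose, led by PKMYT1 (-1.37 ± 0.17), an inhibitor of CDK1, UBE2S (-1.18 ± 0.11) and CKS2 (-1.15 ± 0.10). In the knockout line 67 of the 102 rose and 22 fell (65.7% and 21.6%, against 42.1% and 42.5% of all genes tested). Under the ASO 9 rose and 15 fell of 101 tested (8.91% and 14.9%), near the shares of all genes, 11.3% and 10.3%. Under the UHRF1 siRNA 3 rose and 91 fell (89.2% lower, against 32.7% of all genes tested). In the knockout line CDCA5 (sororin), which protects sister cohesion, rose by 1.83 ± 0.04, CENPO by 1.6 ± 0.04 and SHCBP1 by 1.65 ± 0.05, while CENPW was at -1.31 ± 0.06 and CENPT at -1.11 ± 0.05. Under the UHRF1 siRNA ESCO2, a cohesin acetyltransferase, was at -3.72 ± 0.13, SKA3 at -3.52 ± 0.10 and KIF18B at -3.41 ± 0.06.

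The G1/S and replication genes, a list of 35, did not follow the 46 in every comparison. Under the SMYD3 siRNA 23 fell and 3 rose (65.7% lower, against 24.4% of all genes tested; median -0.52), led by CDC45 (-1.22 ± 0.15), CCNE2 (cyclin E2, -1.20 ± 0.15) and MCM10 (-1.09 ± 0.15). Under the ASO 17 rose and none fell (48.6% higher, against 11.3% of all genes tested; median 0.21), led by CCNE2 at 33.8 ± 3.83 CPM, against 20.5 ± 0.0753 CPM in PBS (SD, n = 2 each; 0.72 ± 0.08, adjusted p = 6.76e-05). The ASO medians of the lists thus had opposite signs, 0.21 for G1/S genes and -0.13 for the 46. In the knockout line 33 of the 35 rose (94.3%, against 42.1% of all genes tested; median 0.87), led by ORC1 (1.92 ± 0.05), RRM1 (1.80 ± 0.05) and MCM2 (1.75 ± 0.04). Under the UHRF1 siRNA all 35 fell (against 32.7% of all genes tested; median -2.48), led by GINS2 at 1.49 ± 0.300 CPM, against 38.0 ± 1.98 CPM (SD, n = 3 each; -4.67 ± 0.10, adjusted p = 2.09e-40).

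Regulators of cell cycle transcription, a list of 23 DREAM, RB and E2F genes, had 3 that rose and 4 that fell under the SMYD3 siRNA (13% and 17.4%, below the 24.2% and 24.4% of all genes tested). Of the same list 12 rose and 9 fell in the knockout line (52.2% and 39.1%), near the 42.1% and 42.5% of all genes. Under the ASO 6 rose and 2 fell (26.1% and 8.7%, against 11.3% and 10.3%), and under the UHRF1 siRNA 4 rose and 16 fell (17.4% and 69.6%, against 32% and 32.7%). E2F1, an activator of G1/S genes, fell under the SMYD3 siRNA (-1.45 ± 0.12, adjusted p = 3.75e-07) and the UHRF1 siRNA (-3.31 ± 0.07, adjusted p = 2.09e-40), rose in the knockout line (0.61 ± 0.06, adjusted p = 6.65e-08) and did not pass under the ASO (0.12 ± 0.06, adjusted p = 0.160). CDKN1A (p21), an inhibitor of cyclin-dependent kinases, rose under the SMYD3 siRNA to 325 ± 17.1 CPM, against 184 ± 10.4 CPM (SD, n = 3 each; 0.82 ± 0.08, adjusted p = 1.25e-06). It also rose under the ASO (0.26 ± 0.06, adjusted p = 0.00633) and in the knockout line (1.36 ± 0.05, adjusted p = 1.14e-12), and it did not pass under the UHRF1 siRNA (0.06 ± 0.05, adjusted p = 0.259). CDKN1A therefore rose in the knockout line, where most of the 46 rose, and under the SMYD3 siRNA, where 44 fell. LIN9, a MuvB subunit, rose under the SMYD3 siRNA (0.53 ± 0.11), the ASO (0.28 ± 0.09) and in the knockout line (0.43 ± 0.07), and fell under the UHRF1 siRNA (-1.81 ± 0.12). RBL2 (p130), a pocket protein of the repressive DREAM complex, changed by at most 0.32 in size in any comparison.

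**Figure D5:**
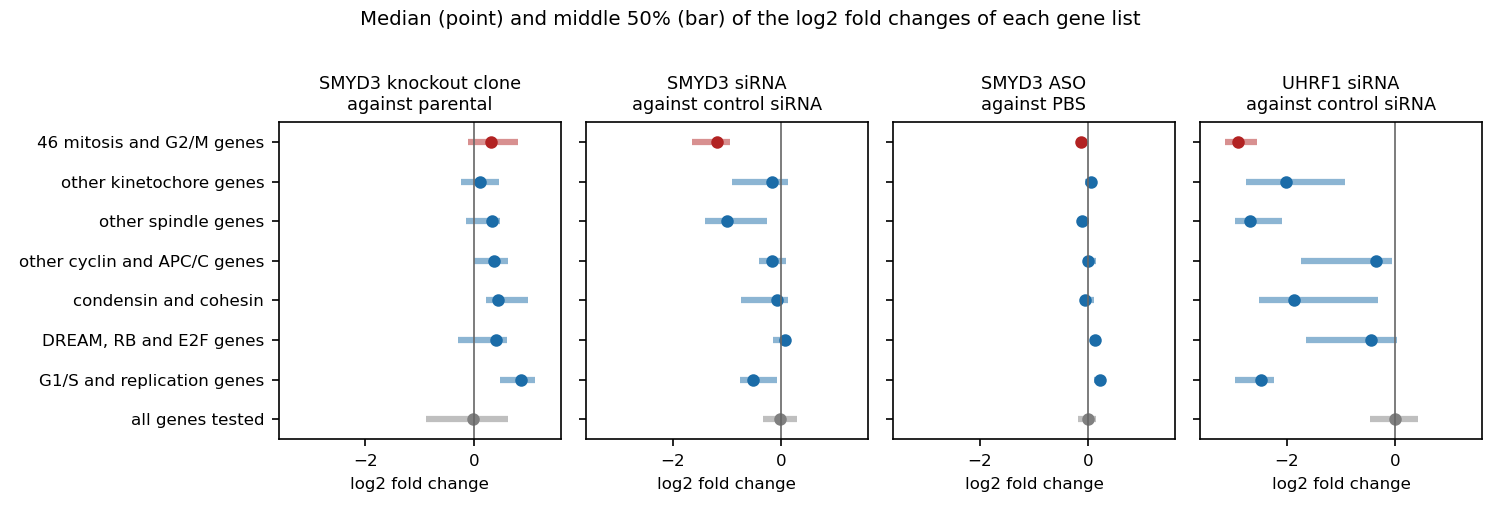
Median log2 fold change (point) and the range of the middle 50% of genes (bar) for the 46 genes, 6 further lists and all genes tested, in the 4 comparisons. Under the ASO the G1/S median lies right of 0 and that of the 46 genes left of it; under the UHRF1 siRNA the median of the 46 is -2.90 and that of all genes -0.01.

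Per kilobase of exon, the levels of the 46 genes spanned a wide range in control cells of the UHRF1 comparison. MELK was highest, at 104 ± 2.11 CPM per kilobase (SD, n = 3), followed by ANLN at 91.7 ± 1.69, CDC20 at 87.2 ± 4.06, TPX2 at 86.3 ± 2.02 and TOP2A at 77.9 ± 2.78, of which CDC20 and TPX2 differ by less than their spread. Under the UHRF1 siRNA the order changed, with ANLN, a scaffold of the cytokinetic ring, at 18.9 ± 0.914 and MELK at 11.9 ± 0.803 CPM per kilobase (SD, n = 3). In PBS cells of the ASO comparison CDC20 and MELK were at 120.5 ± 6.12 and 117 ± 3.00 CPM per kilobase (SD, n = 2), which overlap. PRC1, an organiser of the spindle midzone, and NUSAP1, a microtubule-binding protein, were lowest in both tables, at 0.623 ± 0.0658 and 2.86 ± 0.132 CPM per kilobase in the controls of the UHRF1 comparison. Of their exon bases 58.4% and 62.2% are shared with another annotated gene in GENCODE release 29, the highest shares of the 46, so their levels and changes are uncertain. PRC1 was at 3.44 ± 0.363 CPM in those controls, against 33.1 ± 7.99 CPM in the controls of the SMYD3 siRNA table (SD, n = 3 each); these tables were scaled separately.

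NUF2 was taken as a reference for the pattern over the 16 libraries of the count tables. Among 13050 genes the 5 whose log2 CPM correlated most closely with it were CCNB1 and HMMR, each with a Pearson r of 0.997, UBE2C at 0.996, and CENPA and MAD2L1 at 0.995. All 5 belong to the 46; the next, YWHAQ at 0.994, does not, nor do 11 of the first 20. The log2 CPM of each gene were centred within each table first, so steps between tables do not enter. The libraries share the treatments, and the coefficients are a description over 16 libraries in 6 groups.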

How the data were processed

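RNA of 22 HN-6 libraries was measured with poly(A)-selected, stranded libraries, per the labels' protocols. Per the submitters' processing notes the genome build was hg38 and the tools bcl2fastq and Bowtie; which program counted reads, and on which annotation, is not given here. As deposited, the tables of both siRNAs and of the ASO hold raw counts per gene. The knockout table holds a signal as deposited, gene counts scaled by the authors with 1 factor per library; dividing by each library's smallest step gave whole reads for 100% of values within 0.01. Lines of 1 symbol were summed. Of the SMYD3 siRNA lines, 23588 had no symbol and held 0.849% to 0.917% of the reads. The ASO and UHRF1 siRNA tables list mitochondrial genes at 0.

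For raw counts the test was edgeR 4.0.16, two-sided quasi-likelihood with robust dispersion, after filterByExpr and TMM scaling, on 18982, 18233 and 18349 genes. A count test was planned for the knockout table too. As its values are scaled, it was tested with limma 3.58.1 (trend, robust) on log2(value + 1), keeping the 16948 genes that reached 10 in 3 or more libraries, so its fold changes are on the log2(value + 1) scale. Adjustment was Benjamini-Hochberg over all genes tested. Printed CPM values use TMM-scaled library sizes. Differences between effects were tested in joint fits. These were edgeR over the 16 count libraries, and limma on log2(CPM + 1) over all 22 for pairs with the knockout. The limma fit kept genes with a CPM of 1 or more in at least 2 libraries. Its CPM use plain library totals over the genes in all 4 tables, without TMM factors. R 4.3.3 and Python 3.11.15 were used, and the tests were checked on simulated data.

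The 46 genes, their roles and the other lists were chosen with earlier results of these data known. All 46 may be named; values are given for the 3 genes of each role group with the largest called change in each comparison, for those against the majority and for the complexes set side by side. Of each other list the leading called genes are named, with CDKN1A, E2F1, LIN9 and RBL2. The submitters call the replicates biological. In the SMYD3 siRNA and ASO comparisons same-numbered control and treated libraries have neighbouring library names, but no shared culture or day is stated. Same-numbered libraries of 2 groups did not deviate together in every pair, so they were not treated as pairs. No library repeated another. Alternatives were other scaling, DESeq2 1.42.0, other filters and pseudocounts, mitochondrial genes removed, the replicate number as a block, and each library left out. Read depth limits the precision of genes near 1 CPM, and errors between libraries of 1 group may be technical in part.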

Additional observations from a re-analysis of the deposited data

Results flagged for a closer look

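Effects of the 3 ways of lowering SMYD3 on the same 46 genes differed by a test of the difference itself, at an adjusted p below 0.05 over all genes tested. The SMYD3 siRNA effect minus the ASO effect was below 0 for 42 genes and above 0 for 0, against 19.3% and 18.6% of all genes tested. The knockout effect minus the SMYD3 siRNA effect was above 0 for 41 genes and below 0 for 0, against 40.9% and 36.2%. The knockout effect minus the ASO effect was above 0 for 25 genes and below 0 for 9, against 35.6% and 37.7%. With upper-quartile factors in edgeR on reads, an alternative chosen after seeing the data, the last split was 21 above and 12 below, and the knockout minus siRNA counts were 41 and 0. The comparisons come from separately deposited tables, and the remaining SMYD3 RNA was 29.1% of parental in the knockout line, 18.9% of control under the siRNA and 17.3% of PBS under the ASO; the part of either in these differences was not tested.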

How the results depend on the processing

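The 46 falls under the UHRF1 siRNA kept their direction and call under every alternative run. Under the SMYD3 siRNA 39 to 45 genes fell across the left-out libraries, and 44 or 45 under each other alternative; BUB3, whose change was near 0, turned positive under the replicate block (0.000163), DESeq2 (0.012), without mitochondrial genes (0.000552), with 10 or more reads in every library (0.00296), and ranged from -0.0373 to 0.0349 with 1 library left out. In the knockout line upper-quartile factors turned 7 genes. These were BUB1B (-0.095), BUB3 (-0.0983), CENPA (-0.227), SPC25 (-0.142), KIF11 (-0.0958), PRC1 (-0.0341) and CCNB1 (-0.0359). Of them BUB3 and KIF11 passed as falls instead of rises (edgeR, adjusted p = 0.0101 and 0.0492). CENPA gained a call as a fall, BUB1B, PRC1 and CCNB1 lost theirs, and SPC25 had none under either scaling. Among genes that kept their sign CENPF, NEK2 and CCNA2 lost their calls and CENPE and NUSAP1 gained one. DESeq2 put NUSAP1 at 0.00419. With 1 library left out, CENPA ranged from -0.00464 to 0.0863, CENPE from -0.0739 to 0.0404 and NUSAP1 from -0.0441 to 0.0405. The cause was not tested.

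Under the ASO, with 1 library left out, the lone library being assumed to vary like the other group, 6 to 12 genes fell and 0 or 1 rose, and 6 genes changed sign: ANLN (-0.145 to 0.00138), AURKB (-0.052 to 0.000936), CCNB1 (-0.0603 to 0.0178), ESPL1 (-0.23 to 0.11), FOXM1 (-0.108 to 0.0799) and KIF11 (-0.057 to 0.0239). With DESeq2 962 genes of the whole table fell and 1308 rose, against 1880 and 2068 in edgeR, and of the 46 genes 8 fell and 1 rose.

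The replicate number as a block changed only the ASO counts by over 1.5 times: 24 of the 46 fell and 3 rose, and over all genes 3296 fell and 3477 rose. Same-numbered libraries had deviations correlated at 0.226 in the ASO comparison. With only 2 libraries a group, that value says little about pairing. The correlations were -0.0502 to 0.152 in the knockout, -0.0438 to 0.325 in the SMYD3 siRNA and -0.0356 to 0.0292 in the UHRF1 siRNA comparison. The numbers were not taken as pairs.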
